A study of Sus scrofa with 16 samples.

Results

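The RNA of 10 chaperone genes of the heart, *HSPB1*, *HSPB6*, *HSPB7*, *HSPB8*, *CRYAB*, *BAG3*, *HSPA8*, *HSPH1*, *DNAJB1* and *HSP90AA1*, was followed in pig myocardium after ischemia/reperfusion (IR) injury. The genes were chosen by name, as the small heat shock proteins, co-chaperones and heat shock proteins of cardiac muscle, and all 10 were found by symbol among the 22629 genes of the deposited tables. White Yorkshire-Landrace pigs were operated on at 1 month of age. In the 4 IR pigs (females 2 and 14, males 9 and 11) the left anterior descending artery was occluded for 1 h and then reperfused, and in the 4 sham pigs (females 4 and 5, males 12 and 13) the suture was placed but the artery was not occluded. Hearts were collected 4 weeks later, and the left ventricle of each pig was sampled once in the scar and once in the border zone, so that there were 4 groups of 4 samples. A scar zone sample of an IR pig also held myocardium next to the scar, and a scar zone sample of a sham pig came from the matching place of a ventricle whose artery had not been occluded.

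Small heat shock proteins bind unfolding proteins without using ATP and hold them until other chaperones refold or remove them. In cardiac muscle *CRYAB*, *HSPB1*, *HSPB6*, *HSPB7* and *HSPB8* are made at high level and associate with the sarcomere, desmin and filamin. The co-chaperone BAG3 joins HSPB8 to HSP70 proteins and so directs damaged filamin and other Z-disc proteins to autophagy. HSPA8 is the constitutive HSP70, DNAJB1 the HSP40 partner that loads clients onto HSP70 and starts its ATPase, HSPH1 a nucleotide exchange factor of HSP70, and HSP90AA1 the stress-inducible cytosolic HSP90. Under proteotoxic stress the transcription factor HSF1 raises many of these genes together, with the inducible HSP70 genes *HSPA1A* and *HSPA1B* as its best known targets.

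The estimated counts, which the authors obtained with kallisto, summed to between 15427663 and 49045206 per sample. The male IR libraries were the deepest. The scar zone library of female IR pig 14 held the Y-linked *DDX3Y* at 4.47 CPM (counts relative to a TMM-scaled library size). The border zone library of pig 14 held it at 1.21 CPM, the other females at 0.399 to 1.03 CPM and males at 68.4 to 103 CPM, so results are also given without pig 14. Of 16 cardiomyocyte markers, 13 were listed and none was at 0 in any group. Their summed level was 98570 and 100800 CPM in the scar zone of the female IR pigs, 70460 and 87240 CPM in that of the male IR pigs, and 88410 to 120100 CPM in the sham scar zone. The 10 fibroblast markers summed to 25060 and 34210 CPM in the scar zone of male IR pigs 9 and 11, and to between 4981 and 8204 CPM in all 14 other libraries. In the scar zone of female IR pigs 2 and 14 they summed to 6226 and 4981 CPM, and in that of sham pigs to 5834 to 7699 CPM, so the high sums were seen in male IR pigs only. In such bulk RNA, fewer cells of a type and less RNA per cell cannot be told apart.

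Levels of different genes were compared on the TPM scale, which is per transcript length. *CRYAB* was the most abundant of the 10 genes, with a median of 2159 TPM over 16 samples (range 1475 to 4363) and the 40th highest median of all genes in the table. *HSPB1* (median 703 TPM), *HSPA8* (664.5 TPM) and *HSPB7* (654 TPM) followed close together: *HSPB1* exceeded *HSPA8* in 11 of 16 samples and *HSPA8* exceeded *HSPB7* in 8 of 16, so their order was not set apart from the spread. *HSP90AA1* had a median of 399 TPM, below *HSPB7* in all 16 samples. *HSPB8* (283 TPM) and *HSPB6* (271 TPM) again could not be ordered, with *HSPB8* above in 10 of 16 samples. *BAG3* (42.8 TPM), *DNAJB1* (26.5 TPM) and *HSPH1* (9.99 TPM) were lower, each below the one before it in all 16 samples. Together the 10 genes made up 0.406% to 0.897% of the TPM of a sample. The spread between the 16 samples was widest for *HSPB6*, whose CPM had a coefficient of variation of 52.3% and a highest value 6.85 times the lowest, and narrowest for *HSP90AA1*, at 11.4% and 1.48 times.

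**Figure D1:**
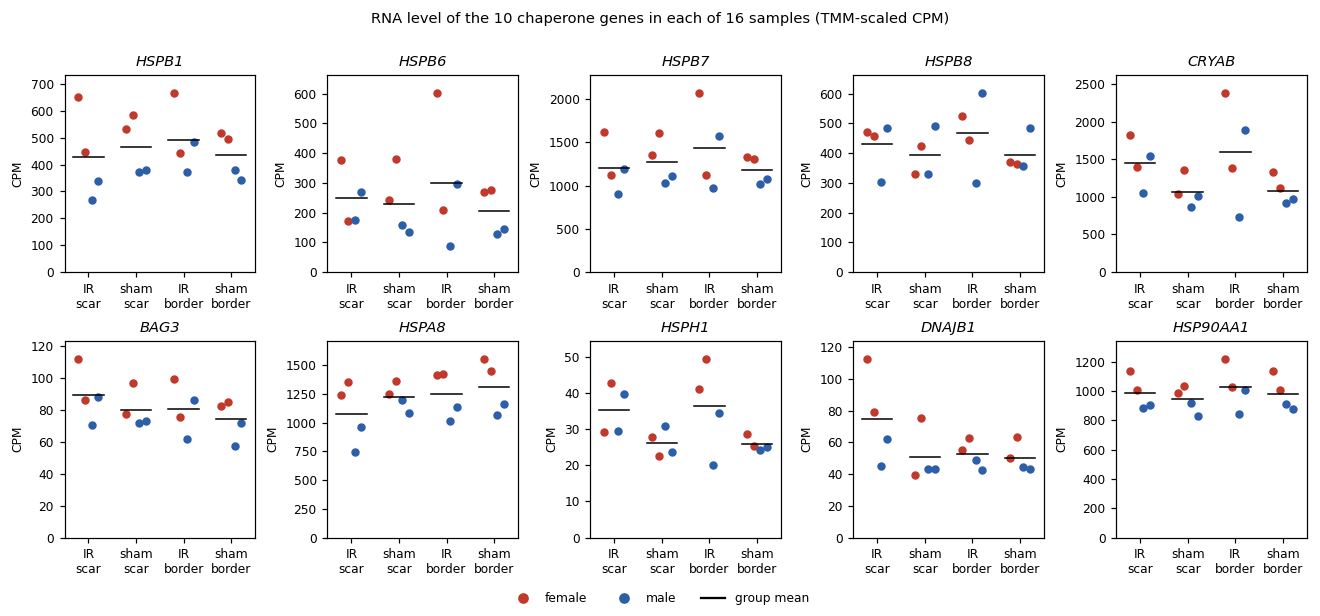
TMM-scaled CPM (linear axes from 0) of the 10 genes in each of the 16 samples, by group, with females in red, males in blue and a black line at the group mean. On this scale IR and sham samples overlapped for every gene in both zones, and in the *HSPA8* panel every red point lies above every blue one.

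The first question was whether these genes differed between IR and sham pigs 4 weeks after the injury. By edgeR's quasi-likelihood test, none of the 10 reached an adjusted p (Benjamini-Hochberg, over every gene tested) of 0.05 or less together with a fold change of 2 or more, in scar or border zone, where 0% of 14023 and 0% of 13728 genes did. DESeq2 also gave 0 of the 10 in either zone, beside 0.371% and 0.0146% of all genes, as did limma on log2(TPM + 1), beside 0.0246% and 0%. At an unadjusted p of at most 0.05, 1 of the 10 was higher and 0 were lower in the IR scar zone, beside 6.57% and 4.64% of all genes, and 0 were higher or lower in the border zone, beside 2.09% and 1.69%. DESeq2 gave 2 higher in the scar zone (*CRYAB* and *HSPH1*) and 1 in the border zone (*HSPH1*) at that level, beside 7.2% and 2.64% of all genes. By limma on log2(TPM + 1), 3 were higher in the scar zone (*CRYAB*, *HSPH1* and *DNAJB1*) and 0 in the border zone, beside 6.66% and 2% of all genes. In that scar zone fit 1.44% of all genes were lower, so the TPM scale gave a larger part of higher calls than the counts did. The log2 fold change was above 0 for 7 of 10 in the scar zone, with a median of 0.11 (0.03 over all genes), and for 9 of 10 in the border zone, with a median of 0.22 (below 0.01 over all genes). Without pig 2 the medians of the 10 were less than 0.01 below 0 and 0.02. The 95% interval of the fold change lay within a doubling and a halving for 9 of the 10 in the scar zone, the exception being *DNAJB1*, and for 7 in the border zone, the exceptions being *HSPB6*, *CRYAB* and *HSPH1*. On the scale of TMM-scaled CPM, for none of the 10 were all IR samples above or below all sham samples of the zone. Over 14278 genes, 2.21% lay above and 2.67% below in the scar zone in this way, and 0.812% and 1.25% in the border zone. On TPM, all IR samples were above all sham samples for 1 of the 10 in the scar zone, *CRYAB*, beside 3.15% of 12619 genes above and 0.674% below, and for 0 in the border zone, beside 1.19% and 0.483%.

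**Figure D2:**
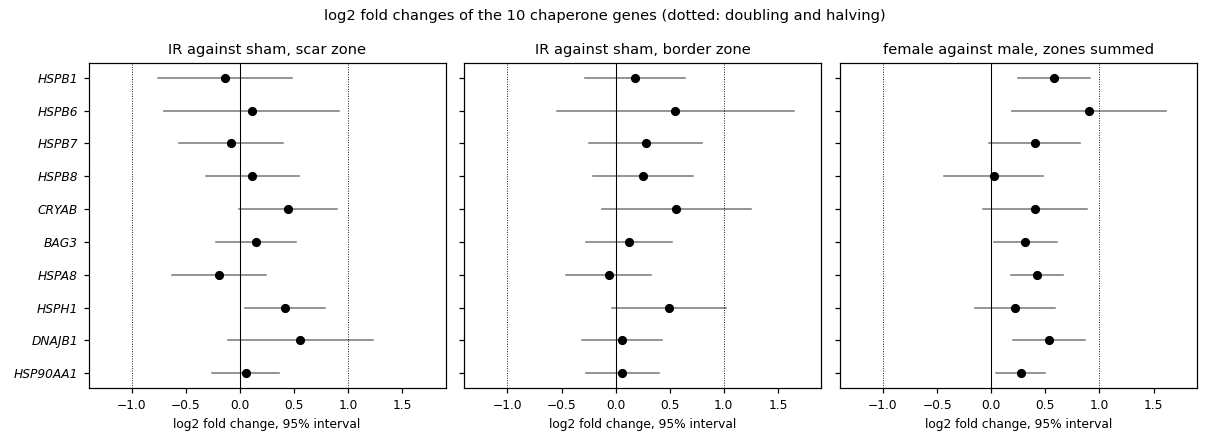
Fitted log2 fold changes (dots) with their 95% intervals (lines) for IR against sham in the scar zone, IR against sham in the border zone, and female against male pigs with both zones summed; dotted lines mark a doubling and a halving. *HSPH1* alone has an interval above 0 in the scar zone, none has in the border zone, and 6 of the 10 have in the comparison of the sexes.

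Among the small heat shock proteins, *CRYAB* encodes alpha-B-crystallin, the desmin chaperone whose mutation causes myofibrillar myopathy. In the scar zone it was at 1824, 1398, 1052 and 1548 CPM in IR pigs 2, 14, 9 and 11, and at 1032, 1352, 867 and 1012 CPM in sham pigs 4, 5, 12 and 13. Hence on CPM 3 of the 4 IR samples lay above every sham sample and that of pig 9 lay among them. On TPM the IR samples were at 3314, 2383, 2866 and 3177 and the sham samples at 1968, 2240, 1574 and 1758, so that all 4, pig 9 included, were above every sham sample. By edgeR its log2 fold change was 0.44 (SE 0.20, adjusted p = 0.449), and it ranged from 0.31 to 0.58 when single pigs were left out. Border zone *CRYAB* was at 2377, 1387, 728 and 1890 CPM in IR pigs and at 1331, 1113, 915.5 and 975 CPM in sham pigs. Again 3 IR samples were above all sham samples, whereas pig 9 was the lowest of the 8. The log2 fold change was 0.56 (SE 0.31, adjusted p = 0.988), or 0.30 without pig 2 and 0.81 without pig 9.

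*HSPB1*, or HSP27, binds actin filaments. Its scar zone level was 652, 447, 269 and 340 CPM in IR pigs 2, 14, 9 and 11 and 532.5, 583, 372 and 378.5 CPM in sham pigs 4, 5, 12 and 13, and in both groups the females were above the males. The log2 fold change was -0.14 (SE 0.28, adjusted p = 0.840) there and 0.18 (SE 0.21, adjusted p = 0.988) in the border zone. *HSPB7*, which binds filamin C and the thin filament in heart muscle, was on CPM highest in pig 2 among IR pigs and lowest in pig 9, as *HSPB1* was. On scar zone TPM the lowest IR pig was pig 14 for *HSPB7* (563.5, pig 9 at 715). For *HSPB1* it was pig 11 (621, pig 9 at 652). *HSPB7* was at 1619, 1120, 899 and 1191 CPM in the IR scar zone and 1350, 1609, 1026 and 1112 CPM in the sham scar zone, a log2 fold change of -0.09 (SE 0.21, adjusted p = 0.871). Its log2 fold change in the border zone was 0.28 (SE 0.23, adjusted p = 0.988), or 0.04 without pig 2 and 0.43 without pig 9. The negative scar zone values of these 2 genes were not stable to the scale: by limma on log2(TPM + 1) they were 0.02 for *HSPB1* and 0.09 for *HSPB7*, where the median of all genes was 0.15.

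*HSPB6*, or HSP20, is a small heat shock protein of muscle that is phosphorylated after beta-adrenergic stimulation. Its border zone level ranged from 87.8 CPM in IR pig 9 to 602 CPM in IR pig 2, with 210 and 295.5 CPM in pigs 14 and 11 and 128 to 276.5 CPM in the sham pigs. Its log2 fold change of 0.55 (SE 0.49, adjusted p = 0.988) became -0.05 without pig 2, so that 1 pig set its direction. In the scar zone the log2 fold change was 0.11 (SE 0.36, adjusted p = 0.907), and -0.17 without pig 2. *HSPB8*, the BAG3 partner, was at 304 to 484 CPM in the IR and 331 to 490.5 CPM in the sham scar zone, with log2 fold changes of 0.11 (SE 0.19, adjusted p = 0.804) in the scar and 0.25 (SE 0.21, adjusted p = 0.988) in the border zone. With single pigs left out these ranged from 0.03 to 0.24 in the scar and from 0.10 to 0.42 in the border zone. *BAG3* itself was at 112, 86.15, 70.35 and 87.9 CPM in the scar zone of IR pigs 2, 14, 9 and 11, and at 71.6 to 97.05 CPM in the sham pigs. Its log2 fold change was 0.15 (SE 0.16, adjusted p = 0.703) in the scar and 0.12 (SE 0.18, adjusted p = 0.988) in the border zone, and without pig 2 it was 0.02 and less than 0.01.

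In the HSP70 system, *HSPH1* was the member with an unadjusted p under 0.05. It was at 29.3, 43.0, 29.45 and 39.9 CPM in the scar zone of IR pigs 2, 14, 9 and 11 and at 28.0, 22.5, 31.1 and 23.8 CPM in sham pigs 4, 5, 12 and 13. The samples of pigs 14 and 11 lay above all sham samples, and the other 2 lay among them, although on TPM that of pig 9 (14.75) was also above all sham samples (highest 10.6). This gave a log2 fold change of 0.42 (SE 0.17, edgeR unadjusted p = 0.0320, adjusted p = 0.438), and without pig 14 it was 0.31. With pig 11, 13 or 14 left out, none of the 10 genes had an unadjusted p of 0.05 or less, where 3.24%, 6.23% and 10.3% of all genes were higher at that level. In the other direction, 2 of the 10 were higher without pig 5 (*CRYAB* and *DNAJB1*), beside 3.43% of all genes, and 3 without pig 9 (*CRYAB*, *HSPH1* and *DNAJB1*), beside 3.77%. Border zone *HSPH1* was at 41.3, 49.6, 20.0 and 34.6 CPM in IR pigs and 28.8, 25.5, 24.2 and 25.1 CPM in sham pigs, with 3 IR samples above all sham samples and that of pig 9 below them. The log2 fold change was 0.49 (SE 0.24, adjusted p = 0.988), or 0.30 without pig 14 and 0.70 without pig 9.

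*HSPA8* was at 1239, 1354, 745 and 960.5 CPM in the scar zone of IR pigs 2, 14, 9 and 11 and at 1247, 1367, 1202 and 1083 CPM in sham pigs 4, 5, 12 and 13. On CPM the male IR samples, those with the high fibroblast marker sums, were the lowest of the 8. On TPM they were at 601 and 586, and the lowest of the 8 was sham pig 13 at 557. Its log2 fold change was -0.20 (SE 0.19, adjusted p = 0.669), and -0.07 without pig 9. In the border zone, where the fibroblast markers did not separate these pigs, it was -0.07 (SE 0.18, adjusted p = 0.993). The part of the fibroblast RNA in the scar zone values was not tested. *HSP90AA1* had the log2 fold change nearest to 0 in the scar zone, with 887 to 1134 CPM in the IR and 827 to 1037 CPM in the sham scar zone. Its log2 fold changes were 0.05 (SE 0.14, adjusted p = 0.876) in the scar and 0.06 (SE 0.15, adjusted p = 0.993) in the border zone.

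*DNAJB1* led the 10 in the scar zone by log2 fold change, at 0.56 (SE 0.30, adjusted p = 0.485). It was at 113, 79.1, 45.2 and 62.2 CPM in IR pigs 2, 14, 9 and 11 and at 39.7, 75.6, 43.3 and 43.2 CPM in sham pigs 4, 5, 12 and 13. Samples of females 2 and 14 were above all sham samples, and sham pig 5 stood above 2 of the IR pigs. Without pig 2 the log2 fold change was 0.29, and without pig 5 it was 0.82. Border zone samples of IR pigs, at 42.7 to 62.5 CPM, and of sham pigs, at 43.2 to 63.6 CPM, covered the same range (log2 fold change 0.06, SE 0.17, adjusted p = 0.993).

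The inducible HSP70 gene was measured by 1 row, listed by Ensembl ID and named HSP70.2 in the gene table, which stands here for *HSPA1A* and *HSPA1B*, near-identical genes whose reads cannot be told apart. *HSPA1A* was at 1461, 623, 155 and 172 CPM in the scar zone of IR pigs 2, 14, 9 and 11 and at 220, 527, 126 and 170 CPM in sham pigs 4, 5, 12 and 13. Thus the female IR samples were the highest of the 8 and the male IR samples lay within the sham range. Its log2 fold change was 1.20 (SE 0.73, adjusted p = 0.517), or 0.26 without pig 2. Border zone *HSPA1A* was at 572, 471, 565 and 171 CPM in IR pigs and 147, 362, 167 and 128 CPM in sham pigs, with 3 of 4 IR samples above all sham samples. That log2 fold change was 1.14 (SE 0.41, edgeR unadjusted p = 0.0198, adjusted p = 0.988), between 0.97 and 1.59 with each pig left out. Of the 10 genes, *DNAJB1* had the highest Pearson correlation of log2 CPM with *HSPA1A* over the 16 samples, r = 0.82, followed by *HSPB1* at 0.62, and *HSPH1* had the lowest at 0.14. These samples share 8 pigs, and the correlation is given as a description.

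**Figure D3:**
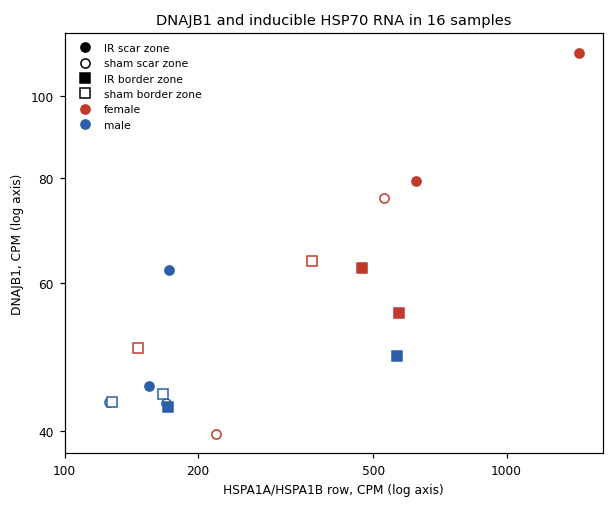
*DNAJB1* against the *HSPA1A*/*HSPA1B* row in CPM (both log axes), 1 point per sample; circles are scar and squares border zone samples, filled for IR and open for sham pigs, red for females and blue for males. The scar zone sample of female IR pig 2 is highest on both axes, at 1461 and 113 CPM, and most male samples sit at the lower left.

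A second question was whether the IR effect differed between the zones. The scar and border samples of a pig deviated together from their group means, with a correlation across genes of 0.354 to 0.692 in each of the 8 pigs, so the pig was also used as a replicate block. The difference of the IR effects (scar minus border) gave 0 of the 10 genes at the adjusted threshold without or with the block, beside 0% of all genes in both fits. With the replicate block, 0 had an unadjusted p of at most 0.05 above 0 and 1 below, beside 4.24% and 2.75% of all genes; without it there were 0 in either direction, beside 1.96% and 0.259%. That gene was *HSPB1*, with a difference of -0.35 (SE 0.15, edgeR unadjusted p = 0.0445, adjusted p = 0.702). *HSPB7* was at -0.31 (SE 0.14) and *DNAJB1* at 0.48 (SE 0.22) with the same adjusted p of 0.702. Without the block *DNAJB1* was at 0.51 (SE 0.36), and at 0.26 with pig 2 left out. For all 10 genes the 95% interval of the difference with the block lay within a doubling and a halving. Without the block it did for 6 of the 10, the exceptions being *HSPB1*, *HSPB6*, *HSPB7* and *DNAJB1*.

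Within IR pigs, scar was compared with border zone, again with 0 of 10 at the adjusted threshold without and with the replicate block and 0% of all genes in each. In the blocked fit *DNAJB1* had a log2 fold change of 0.45 (SE 0.18, edgeR unadjusted p = 0.0415, adjusted p = 0.431), which made 1 of 10 genes above 0 at the unadjusted threshold and 0 below, beside 6.49% and 4.81% of all genes. Without the block it was 0.51 (SE 0.26, edgeR unadjusted p = 0.0778), and 0.27 with pig 2 left out. Scar minus border, the log2 CPM of *DNAJB1* differed by 1.03, 0.34, -0.12 and 0.54 in IR pigs 2, 14, 9 and 11 and by -0.34, 0.25, -0.03 and less than 0.01 below 0 in sham pigs 4, 5, 12 and 13. The pig with the largest difference was again pig 2. On log2(TPM + 1) the difference was above 0 in all 4 IR pigs (1.02, 0.31, 0.40 and 0.80), and all were above all sham pigs, of which pig 5 was highest at 0.18. On that scale *DNAJB1* was the 1 gene of the 10 whose IR and sham pigs did not overlap in this difference, beside 1.7% of 12619 genes with IR pigs above and 0.491% with IR pigs below, whereas on log2 CPM its pigs overlapped. On log2 CPM, *HSPB1* was lower in the scar zone in 3 of 4 IR pigs, by 0.46 to 0.51 on the log2 scale in males 9 and 11 and by 0.03 in pig 2, and higher by 0.01 in pig 14. On log2(TPM + 1) it was lower in all 4, by 0.04 in pigs 2 and 9, 0.09 in pig 14 and 0.22 in pig 11. *HSPA8* was lower in the scar zone of all 4 IR pigs on log2 CPM, by a mean of 0.24 ± 0.155 (SD, n = 4), and of 3 of 4 sham pigs. On log2(TPM + 1) it was lower in 3 of 4 IR pigs, with a mean difference of -0.09 ± 0.13 (SD, n = 4), being higher by 0.05 in pig 11 and less than 0.01 lower in pig 9. *BAG3* was higher in the scar zone of all 4 IR pigs, by a mean of 0.15 ± 0.08, and of 3 of 4 sham pigs, by 0.11 ± 0.18 (SD, n = 4), and the means on log2(TPM + 1) were 0.29 ± 0.24 and 0.09 ± 0.12. Hence neither direction was seen in IR pigs alone. *HSPB7* was higher in the scar zone of all 4 sham pigs, by a mean of 0.10 ± 0.14 on log2 CPM (SD, n = 4), but of 2 of 4 on log2(TPM + 1), and lower in 3 of 4 IR pigs on both scales. On log2 CPM all 4 IR pigs were below all sham pigs for *HSPB7* (highest IR pig less than 0.01, lowest sham pig 0.01), as 1.7% of 14278 genes were (2.3% above), and on TPM they overlapped. In sham pigs, 0 of the 10 genes passed the adjusted threshold without or with the block, beside 0% of all genes in both, and the log2 fold changes without the block were -0.10 to 0.17.

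**Figure D4:**
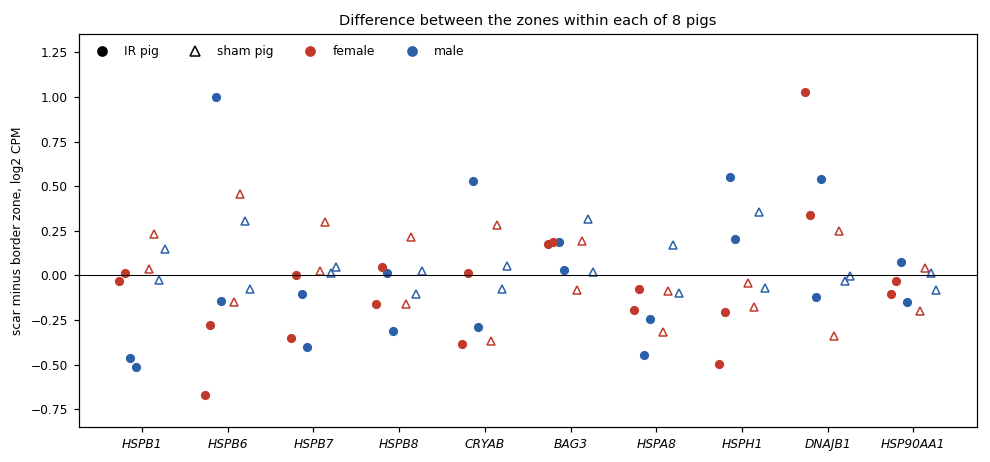
Scar minus border zone difference in log2 CPM for each of the 8 pigs and 10 genes; filled circles are IR pigs, open triangles sham pigs, red females and blue males. *DNAJB1* in pig 2 (1.03) and *HSPB6* in pig 9 (1.00) are the highest points, and for most genes the IR and sham pigs are mixed around 0.

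The other chaperones were read from lists by chaperone system or compartment. Of these lists, 0 genes passed the adjusted threshold in either zone by edgeR. In the list of the endoplasmic reticulum, whose chaperones are induced by the unfolded protein response, all 21 genes were tested, and 2 were higher and 0 lower at the unadjusted p in the scar zone, beside 6.57% and 4.64% of all genes. In the border zone 3 were higher and 0 lower, beside 2.09% and 1.69% of all genes, and the lists that follow are read against the same shares. The median log2 fold change of the list was 0.28 in the scar and 0.15 in the border zone, where those of all genes were 0.03 and below 0.01. In the same scar zone fit the fibroblast markers had a median of 0.92, with 4 of 10 higher and 0 lower at the unadjusted p, and the leucocyte markers a median of 0.43, with 2 of 11 higher and 0 lower. Leucocyte markers summed to 748 to 1109 CPM in the IR and 496 to 886 CPM in the sham scar zone, none being at 0 in any group. For the border zone 0 of either list passed, with medians of -0.02 and 0.23. The part of these cells in the values of the ER genes was not tested. *DNAJB9*, an HSP40 partner of the ER chaperone HSPA5, was at 25.9, 34.7, 34.1 and 46.5 CPM in the IR and 14.6, 21.2, 26.2 and 30.3 CPM in the sham scar zone (log2 fold change 0.61, SE 0.24, edgeR adjusted p = 0.438). In the border zone it was at 31.0, 35.5, 34.8 and 63.3 CPM in IR and 19.0, 22.2, 28.7 and 28.1 CPM in sham pigs (log2 fold change 0.75, SE 0.24, edgeR adjusted p = 0.988), and here all IR samples were above all sham samples, as they were for 0.812% of all genes. *XBP1*, a transcription factor of that response, had a log2 fold change of 0.52 (SE 0.18) in the scar and 0.23 (SE 0.14) in the border zone. The ER chaperones *HYOU1* and *HSPA5* were at 0.35 (SE 0.14) and 0.45 (SE 0.19) in the border and at 0.30 (SE 0.15) and 0.36 (SE 0.19) in the scar zone. *DDIT3*, a transcription factor of prolonged ER stress, was at 0.48 (SE 0.23) in the scar but at -0.03 (SE 0.19) in the border zone.

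Of the HSP70 system, 31 other genes were tested, with 0 higher and 3 lower at the unadjusted p in the scar zone and 1 higher and 0 lower in the border zone. The 3 were *DNAJB12* (log2 fold change -0.34, SE 0.12), the ubiquitin ligase *STUB1* that works with HSP70 (-0.35, SE 0.14) and *BAG2*, an inhibitor of STUB1 (-0.50, SE 0.22), and the 1 was *HSPA1A*. *STUB1* and *BAG2* were at 0.04 (SE 0.15) and -0.19 (SE 0.20) in the border zone. *DNAJB12* was at -0.24 (SE 0.11) and *HSPA13*, an HSP70 relative of microsomes, at 0.50 (SE 0.25) in the border zone. Of 20 genes of the HSP90 system, 1 was higher and 1 lower in the scar zone and 1 higher and 0 lower in the border zone. *CDC37L1*, a relative of the kinase co-chaperone CDC37, was the higher one in both zones (0.43, SE 0.19, and 0.56, SE 0.21), and *UNC45B*, the myosin chaperone of striated muscle, the lower one (-0.25, SE 0.10, and 0.04, SE 0.12, in the border zone). *CHORDC1*, an HSP90 co-chaperone, was at 0.31 (SE 0.21) and 0.43 (SE 0.20), and *PTGES3*, or p23, at 0.32 (SE 0.17) in the border zone. None of 11 chaperonin and prefoldin genes passed at the unadjusted p in either zone. The lowest p of these in the scar zone belonged to *CCT5*, *CCT7* and *PFDN4* (-0.17, -0.17 and 0.18) and in the border zone to *CCT2*, *CCT8* and *VBP1* (0.24, 0.23 and 0.15).

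Mitochondrial chaperones and proteases had a median log2 fold change over 14 genes of -0.23 (scar zone) and -0.03 (border zone). At the unadjusted p, 0 were higher and 1 lower in the scar zone, the protease *CLPP* (-0.45, SE 0.18), and 0 in either direction in the border zone, where *CLPP* was at -0.09 (SE 0.14). *DNAJA3* and *AFG3L2* were at -0.31 (SE 0.15) and -0.26 (SE 0.13) in the scar zone, and *HSPD1*, *YME1L1* and *HSCB* at 0.17, 0.13 and -0.15 in the border zone. In the scar zone 0 of the 13 cardiomyocyte markers passed the unadjusted p, with a median log2 fold change of -0.30. The client side was read from 17 genes of the BAG3 pathway and the Z-disc. There the filamin *FLNC*, which BAG3 and HSPB8 turn over, had log2 fold changes of 0.43 (SE 0.19) in the scar and 0.66 (SE 0.23) in the border zone, and the filamin-binding Z-disc protein *MYOT* of 0.58 (SE 0.17) and 0.61 (SE 0.29). Counts of this list were 2 higher and 1 lower (*STUB1*) in the scar zone and 2 higher, *FLNC* and *HSPA1A*, in the border zone. *FLNC* was at 1577, 1244, 1119 and 1693 CPM in the scar zone of IR pigs 2, 14, 9 and 11 and 1055, 1306, 903 and 884 CPM in sham pigs. Of 21 HSF1 targets, a list that left out the 10 genes, 0 were higher and 1 lower (*BAG2*) in the scar zone. For the border zone 1 was higher (*HSPA1A*) and 0 lower, and the medians were less than 0.01 (scar) and 0.05 (border). The 10 genes themselves would have added *HSPH1* as a higher gene of the scar zone (edgeR unadjusted p = 0.0320) and none of the border zone. The other genes tested that carry an HSPB symbol, *HSPB3* and *HSPB11*, had log2 fold changes of 0.04 to 0.13 in both zones. The cold-inducible RNA-binding genes *RBM3* and *CIRBP* were between -0.12 and 0.17. A list of 7 glucocorticoid targets had medians of -0.08 and 0.04, with 0 past the unadjusted p in the scar zone and 1 lower in the border zone.

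Because females and males stood apart in the levels by sample, the sexes were compared after the values had been seen, with both zones of a pig summed and surgery in the model. None of the 10 genes passed the adjusted threshold, which 0.0723% of 15219 genes did (edgeR quasi-likelihood test), and none did by DESeq2 or limma on log2(TPM + 1), by which 0.815% and 0.115% of all genes did. At the unadjusted p, 6 of 10 were higher in females and 0 were lower, beside 7.7% and 8.21% of all genes, and all 10 log2 fold changes were above 0, with a median of 0.40 (-0.02 over all genes). By limma on log2(TPM + 1), where the median of all genes was -0.12, *HSPB8* was at -0.08 and the other 9 above 0, and 4 of 10 were higher at the unadjusted p and 0 lower, beside 1.84% and 15.3% of all genes. DESeq2 gave 7 of 10 higher at the unadjusted p, beside 9.17% of all genes, and adjusted p values of 0.00887 for *HSPA8*, 0.0144 for *HSPB1* and 0.0352 for *DNAJB1*, all with folds under 2.

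*HSPA8* was at 1239 to 1557 CPM in the 8 female libraries (median 1390) and at 745 to 1202 CPM in the 8 male libraries (median 1075). For it alone among the 10, every female library exceeded every male one, as 0.392% of 14278 genes did (0.322% the other way), and on TPM it was again the 1 such gene of the 10, beside 0.166% of 12619 genes (0.436% the other way). Its log2 fold change was 0.42 (SE 0.11, edgeR adjusted p = 0.208). *HSPB1* was at 443 to 665 CPM in female and 269 to 485 CPM in male libraries, and its log2 fold change was 0.58 (SE 0.15, edgeR adjusted p = 0.208). The 8 libraries of a sex come from 4 pigs, so the zones of a pig are not separate animals. By pig mean, *HSPB1* was at 445 to 658 CPM in females and 321 to 412 CPM in males. *DNAJB1* had a log2 fold change of 0.53 (SE 0.15, edgeR adjusted p = 0.212), with male pigs at 43.2 to 52.4 CPM and female pigs at 44.9 to 83.9 CPM, each the mean of both zones. *HSPB6*, at 192 to 490 CPM in female and 132 to 282 CPM in male pigs, had the largest log2 fold change, 0.90 (SE 0.31, edgeR adjusted p = 0.246). *HSP90AA1* (0.27, SE 0.10) and *BAG3* (0.31, SE 0.13) were the other 2 past the unadjusted p, and *HSP90AA1* was at 1019 to 1177 CPM in female and 851 to 957 CPM in male pigs. By pig mean the sexes thus did not overlap for *HSPA8*, *HSPB1* and *HSP90AA1*. The share of all genes without such overlap was not counted. *HSPB7* (0.40, SE 0.18) and *CRYAB* (0.41, SE 0.21) missed the unadjusted p, as did *HSPH1* (0.22, SE 0.16) and *HSPB8* (0.02, SE 0.20). With single pigs left out, *HSPB7* ranged from 0.25 to 0.54, *CRYAB* from 0.24 to 0.61 and *HSPH1* from 0.08 to 0.31. With each pig left out, 3 (without pig 2) to 8 (without pig 11) of the 10 were higher at the unadjusted p, beside 5.16% and 6.26% of all genes, and 7 without pig 14, beside 9.27%.

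**Figure D5:**
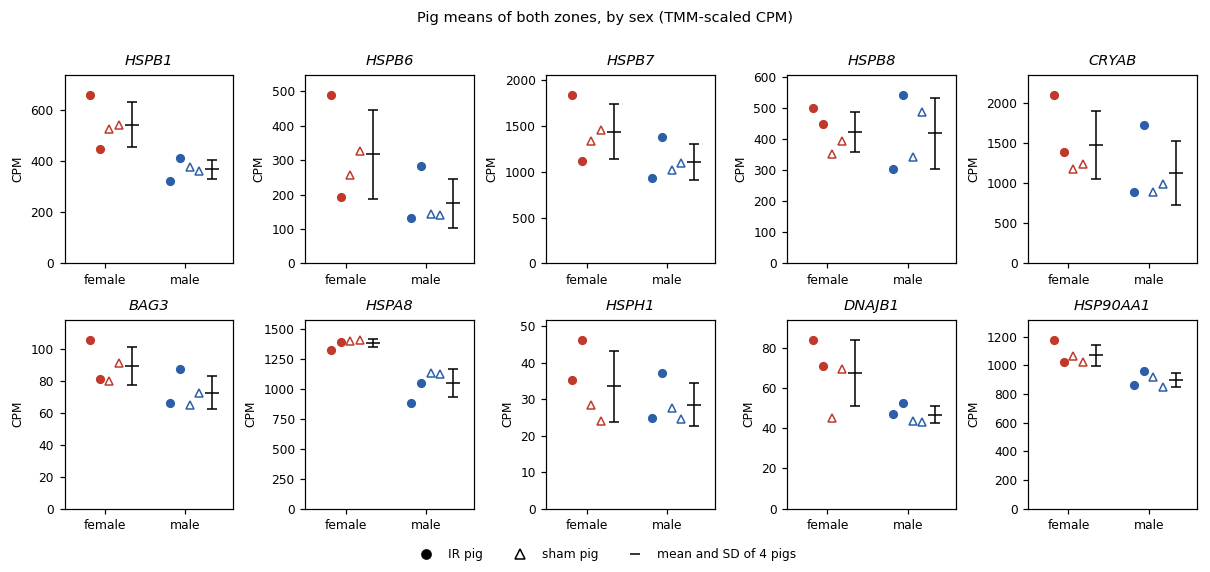
Mean CPM of both zones of each pig (linear axes from 0), females in red and males in blue, filled circles for IR and open triangles for sham pigs, with the mean and SD of 4 pigs beside them. *HSPA8* has female pigs at 1327 to 1408 CPM and male pigs at 880 to 1134 CPM, whereas for *HSPB8* the female range of 351 to 499 CPM lies inside the male range of 302 to 542 CPM.

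The other chaperone lists were also counted by sex. At the unadjusted p, 7 of 31 HSP70 system genes were higher in females and 1 lower, as were 6 and 0 of 20 HSP90 system genes, 6 and 0 of 14 mitochondrial genes, 2 and 0 of 11 chaperonin genes and 7 and 0 of 21 HSF1 targets, whereas 0 of 21 ER genes were higher and 2 lower, all to be read against 7.7% higher and 8.21% lower of all genes. *HSPA1A* had a log2 fold change of 1.36 (SE 0.33, edgeR adjusted p = 0.208, and 0.00179 by DESeq2), being 2.02 in the scar zone libraries and 0.66 in the border zone libraries alone. Beside these counts, 6 of the 13 cardiomyocyte markers were higher and 0 lower in females, and 2 of 10 fibroblast, 3 of 11 leucocyte and 3 of 7 smooth muscle markers were lower and 0 higher. The cardiomyocyte markers summed to 98570 to 120100 CPM in females and 70460 to 114800 CPM in males. The male libraries also held more counts, 19701606 to 49045206 against 15427663 to 23926151. In the border zone libraries alone, where fibroblast sums were between 5407 and 8204 CPM in all pigs, the median log2 fold change of the 10 genes was 0.41, and 6 of 10 were higher at the unadjusted p, beside 3.69% of all genes. Cardiomyocyte markers in these libraries summed to 99920 to 116700 CPM in females. In males they summed to 93110, 114800, 89040 and 91090 CPM (pigs 9, 11, 12 and 13). What share of the difference went with cell makeup or depth was not tested.

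The IR effect was then taken within each sex, with 2 IR and 2 sham pigs in each. In the scar zone, the *HSPA8* log2 fold change was -0.03 (SE 0.16) in females and -0.42 (SE 0.16) in males, and the difference of -0.40 (SE 0.23, edgeR adjusted p = 0.391) did not pass. For *DNAJB1* it was 0.72 (SE 0.31) in females and 0.31 (SE 0.31) in males (difference -0.41, SE 0.43, edgeR adjusted p = 0.664). *CRYAB* was at 0.42 (SE 0.23) in females and 0.47 (SE 0.23) in males, a difference of 0.04 (SE 0.33). For border zone *HSPH1* it was 0.74 (SE 0.26) in females and 0.15 (SE 0.26) in males (difference -0.59, SE 0.36, edgeR adjusted p = 0.786). No difference between the sexes in the IR effect passed for any of the 10 genes in either zone, where 1.5% (scar) and 0.0146% (border) of all genes did.

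Finally, the 10 genes were compared in their pattern over the 16 samples by Pearson correlation of log2 CPM, as a description of samples that share 8 pigs and differ in depth. All 45 pairs had a correlation above 0, with a median of 0.56 and a range from 0.14 for *HSPB1* with *HSPH1* to 0.91 for *HSPB6* with *HSPB7*. *BAG3* was most like *RAB7A* (0.90) among all symbols, and next like *HSPB6* (0.88). *CRYAB* was most like *LIN37* (0.96), *HSPA8* like *TMEM147* (0.96), *HSPB1* like *OTUB1* (0.94), *HSPB7* like *GPAT4* (0.94), *HSP90AA1* like *DDRGK1* (0.93), *HSPB8* like the HSP40 gene *DNAJA2* (0.91) and *HSPH1* like *PTPN11* (0.85). *DNAJB1* was most like *HSPA1L* (0.92), an HSP70 gene of 1.67 to 5.77 CPM that is close in sequence to *HSPA1A*, so its counts could hold shared reads.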

How the data were processed

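The authors sequenced polyadenylated RNA (stranded TruSeq, 75 bp paired reads), trimmed with Trimmomatic 0.33, aligned with HISAT2 2.0.5 and quantified with kallisto 0.43.1 on Ensembl pig cDNA, versions being those of the submitters' processing notes; the genome build is not given in the sources used here. The authors deposited estimated counts per gene, unscaled, and TPM, scaled for length and depth. Reads shared by near-identical genes are divided by kallisto.

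Estimated counts were rounded and tested with edgeR 4.0.16 in R 4.3.3 (TMM scaling, filterByExpr with minimum count 10 and total 15, quasi-likelihood test, Benjamini-Hochberg adjustment over all genes tested, SE from the F statistic). CPM was scaled by TMM over 16 samples, and log2 CPM used a prior count of 2. At these depths 3 counts, the floor, are 0.0612 to 0.194 CPM, for counting error only. The replicate number is the pig, which the labels give for both zones, and the check of pairing gave correlations of 0.354 to 0.692. The pigs are separate animals.

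Alternatives were DESeq2 1.42.0, limma 3.58.1 on log2(TPM + 1) and log2(TPM + 0.1) (filter of TPM 1 or more in 4 or more samples, or none), upper-quartile scaling, no count filter, sex as a covariate, 1 fit of all samples, 1 factor of unwanted variation (5000 control genes), the replicate block and leaving out each pig. The comparison of sexes and the TPM values of sample overlap and within-pig differences were added after seeing the data. The tests were checked on simulated data.

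The 10 genes and the lists were chosen with earlier results of these data known. Named genes were the 10, in each chaperone list those past the adjusted threshold and otherwise the 3 with the lowest p per zone, and per gene the 3 most alike, of which the first are printed. Of 7534 rows given by Ensembl ID, 915 had a name in the gene table. Promoter sequences were not used here.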

Additional observations from a re-analysis of the deposited data

Results flagged for a closer look

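In the 40 groups of 4 samples (10 genes in 4 groups), 3 held a sample that stood apart from the other 3 by Dixon's criterion at its 95% level, where chance gives about 1 in 20. *HSPB8* in the scar zone of IR pigs was at 304 CPM in pig 9, below the other 3 at 457 to 484 CPM. On TPM pig 9 was at 291 and lay within the other 3, at 276.5 to 349. In the border zone of sham pigs, *HSPB8* was at 483 CPM in pig 13, above 356 to 370 CPM in the other 3. *DNAJB1* in the scar zone of sham pigs was at 75.6 CPM in pig 5, above 39.7 to 43.3 CPM in the others. These last samples were also the highest of their groups on TPM (*HSPB8* 313 against 216 to 241, *DNAJB1* 34.2 against 19.9 to 21.6). The scar zone library of pig 5 was also the highest of the sham scar zone for *HSPA1A*, at 527 CPM against 126 to 220 CPM. For none of the 10 genes did the zones differ one way in all IR pigs and the other way in all sham pigs.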

How the results depend on the processing

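In the comparisons of surgery, zone and sex, the count of the 10 genes past the adjusted threshold and a fold change of 2 was 0 by edgeR and under every alternative run, including the replicate block. With the replicate block the IR effect in the scar minus that in the border zone was -0.35 for *HSPB1* and 0.48 for *DNAJB1*, and the block moved no gene past that threshold. It turned *HSPH1* from -0.062 to 0.0031 in that difference and from -0.038 to 0.019 between the zones of IR pigs, and *HSPB8* from 0.0016 to -0.0077 between those of sham pigs.

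Other directions changed as follows, and the cause was not tested. On TPM, whose fits shifted the median of all genes to 0.15 (pseudocount 1), 0.17 (pseudocount 0.1) and 0.10 (no filter) in the scar zone, *HSPB1* was at 0.021 and *HSPB7* at 0.094 in all 3. By limma on log2(TPM + 1) the median of the 10 for IR pigs, scar against border zone, went from -0.13 to 0.11 (2 and 7 genes above 0, all-gene median 0.13), and that of the zone difference of the IR effect from -0.12 to 0.087 (3 and 6 above 0, all-gene median 0.12). Scar against border zone in sham pigs, *DNAJB1* was at -0.028, -0.030 and -0.028 on TPM and -0.029 with the replicate block, and between -0.13 and 0.10 with a pig left out. Females against males, *HSPB8* was at -0.082 in all 3 TPM fits, at -0.033 in border zone libraries and between -0.16 and 0.18 with a pig left out, and *HSPH1* at -0.018 in scar zone libraries. Leaving out a pig gave ranges in the scar zone of -0.42 to 0.018 for *HSPB1*, -0.17 to 0.46 for *HSPB6*, -0.27 to 0.045 for *HSPB7* and -0.026 to 0.10 for *HSP90AA1*. In the border zone the ranges were -0.0024 to 0.30 for *HSPB1*, -0.046 to 0.86 for *HSPB6*, -0.15 to 0.028 for *HSPA8*, -0.042 to 0.19 for *DNAJB1* and -0.034 to 0.15 for *HSP90AA1*. Without pig 9, 3 of the 10 (4.14% of all genes) were higher at the unadjusted p in the border zone, against 0 (2.09%) with it. In the scar zone, with sex as a covariate, 3 were (*CRYAB*, *HSPH1* and *DNAJB1*; 7.72% of all genes), against 1 (6.57%). There the count was also 3 with 1 factor of unwanted variation (7.5% of all genes), and 4 by limma on log2(TPM + 1) without a filter (5.59%). The lowest library value of the 10 genes was 20.0 CPM, above the floor of 0.0612 to 0.194 CPM.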

Other observations

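*FOS*, an immediate early gene that is induced within minutes of a stimulus, was at 367.5 and 59.7 CPM in the scar zone of male IR pigs 11 and 9, at 11.1 and 17.6 CPM in that of female IR pigs 2 and 14, and at 4.11 to 25.3 CPM in the sham scar zone. *HSPA1A* was at 172 and 155 CPM in those male samples and at 1461 and 623 CPM in the female ones. The male samples were also those with the high fibroblast marker sums. The highest *FOS* of the sham scar zone, 25.3 CPM, and the highest *HSPA1A*, 527 CPM, were both in pig 5. The 15 immediate early genes listed summed to 1768 CPM in the scar zone of IR pig 11, 1724 CPM in that of sham pig 5 and 455 to 989 CPM in the other 14 libraries. For IR against sham in the scar zone, 14 of them were tested, with a median log2 fold change of 0.25. Values ran from -0.66 (*JUN*) to 3.49 (*FOS*), and *IER3*, *KLF6*, *ATF3* and *NR4A1* were also below 0. At the unadjusted p 2 were higher and 0 lower, beside 6.57% and 4.64% of all genes. *FOS* was chosen after its values were seen, and its relation to *HSPA1A* was not tested.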
